A study of Mus musculus with 2 samples.

Results

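All 9 microglia identity genes examined here were detected in both libraries of mouse left cerebral cortex, at levels between 4.38 ± 0.460 TPM (Trem2) and 30.7 ± 0.233 TPM (Csf1r; SD, n = 2). The genes are Csf1r, Cx3cr1, P2ry12, Tmem119, Itgam, Trem2, Tyrobp, Aif1 and Sall1. They were chosen by name as genes that microglia are known by, not by their values, and make up 9 of 55536 annotated genes. TPM is a length-corrected share of all transcripts, scaled to a fixed sum in each library.

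The study sequenced total RNA of left cerebral cortex from female mice aged 2 months, of strain B6CASTF1/J, an F1 hybrid whose parents are the inbred strain C57BL/6J and the wild-derived strain CAST/EiJ. It held 1 group of 2 biological replicates with 1 library each, each prepared from 300 ng RNA to which ERCC spike-ins had been added, and no second condition. The tissue samples were numbered separately but carried the same donor entry, and no label says in words that they came from 2 animals, so the spread between them may be technical. The libraries held 31196858 expected counts in replicate 1 and 32292150 in replicate 2.

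Microglia are the resident macrophages of the brain parenchyma. They arise from yolk sac progenitors and depend on signalling through the CSF1 receptor for survival. In the resting state they survey neurons and vessels with motile processes, guided by the fractalkine receptor CX3CR1 and the ADP receptor P2RY12, while TREM2 and its adaptor TYROBP sense lipids and debris. Most of these genes are also used by other macrophages: Csf1r, Cx3cr1, Tyrobp, Trem2, Aif1 and Itgam occur in border-associated macrophages or blood myeloid cells, whereas P2ry12, Tmem119 and Sall1 set microglia apart from them. In RNA from whole cortex, fewer microglia and less RNA per cell cannot be told apart.

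Every member passed 1 TPM in both libraries, 9 of 9, where 27.5% of all annotated genes and 58.8% of nuclear protein-coding genes did. The 9 genes together took 102 TPM in replicate 1 and 99.4 TPM in replicate 2, with a median of 9.61 and 10.8 TPM. Ranked by mean level among nuclear protein-coding genes, Csf1r stood within the top 17.2% and Trem2, the lowest member, within the top 48.4%. Markers of other cortical cells ranged from far above the members to among them: the synaptic gene Snap25 had 1348.46 and 1305.68 TPM in replicates 1 and 2, the endothelial gene Cldn5 15.57 and 15.50 TPM.

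**Figure D1:**
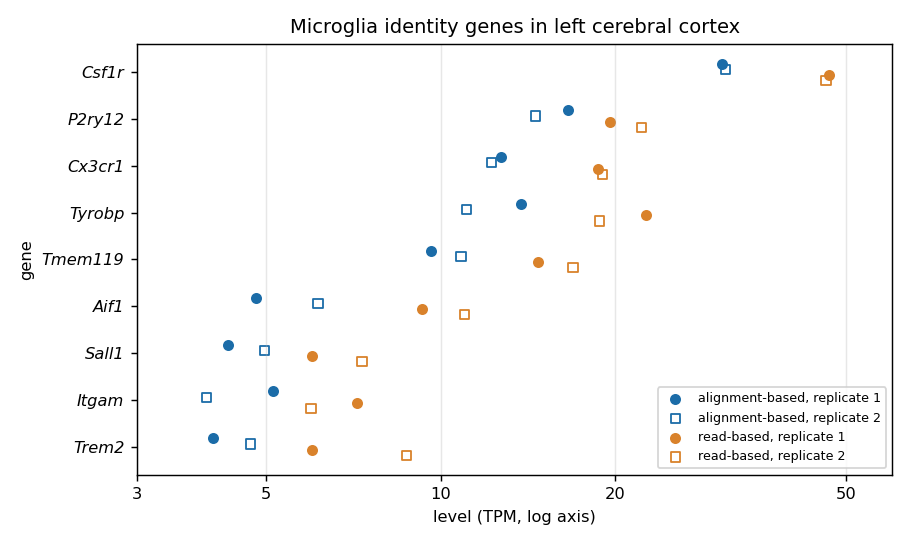
Level of each microglia identity gene in TPM on a log axis, with genes ordered by their mean in the alignment-based tables. Filled circles are replicate 1 and open squares replicate 2, in blue for the alignment-based tables and in orange for the read-based tables; Csf1r stands apart from the other 8 genes in both, and the 4 lowest genes lie close together in the alignment-based tables.

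The authors deposited 2 quantifications of each library, and both are used below. The alignment-based tables were derived from alignments to the transcriptome, and the read-based table from the reads and an index. Both assign fragments that fit several transcripts by a model, so a gene's total is firmer than the split between its transcripts. Every member had a higher TPM in the read-based tables, where nuclear protein-coding genes took 76.5% and 75.5% of TPM, against 46.7% and 44.1% in the alignment-based tables.

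Csf1r, the receptor tyrosine kinase for CSF1 and IL-34, was the most abundant member. Its level was 30.57 TPM in replicate 1 and 30.90 TPM in replicate 2, from 2234 and 2257 expected counts. The gene (ENSMUSG00000024621.16) lies on the plus strand of chromosome 18, where its end overlaps Hmgxb3 on the opposite strand. The 2 libraries lay close together. The log2 ratio of replicate 2 over replicate 1, from scaled counts, was -0.01 with a 95% interval of -0.09 to 0.08. Of 6 annotated transcripts, Csf1r-201 led in each library, with 82.9% and 78.7% of the gene's TPM in the alignment-based tables and 86.1% and 85.7% in the read-based tables. Csf1r-201 and Csf1r-202 encode the same receptor of 2931 coding bases and together made up 91.2% and 85.4%, or 88.7% and 88.3% by the read-based tables.

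The receptor's ligands were both present in the same RNA. Il34, the ligand made mainly by neurons in cortex, stood at 43.39 and 43.90 TPM in replicates 1 and 2. Csf1 had 6.50 and 5.41 TPM. The libraries' ranges for the 2 ligands did not overlap, with Il34 above its receptor and Csf1 below it.

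Cx3cr1 encodes the G-protein-coupled receptor for fractalkine, a chemokine carried on neuronal membranes. Its level was 12.71 TPM in replicate 1 and 12.25 in replicate 2, from 949 and 980 counts. Its ligand gene Cx3cl1 was far more abundant, at 288.28 and 282.83 TPM. The annotated gene (ENSMUSG00000052336.7, chromosome 9, 119901616 to 120069879, minus strand, GRCm38) spans its neighbours Wdr48, Gorasp1 and Csrnp1, but it does so through 1 remote exon of 12 bases that belongs to Cx3cr1-202. The 2 quantifications split the gene differently. The alignment-based tables gave all TPM, 100% in each library, to Cx3cr1-201, while the read-based tables gave it 32.4% and 38.2%, with 32.1% and 24.2% for Cx3cr1-202 and 35.5% and 37.6% for Cx3cr1-203. All 3 transcripts carry the same coding sequence of 1062 bases, so the encoded receptor is the same under either split. Cx3cr1-201 has 0 exonic bases of its own, so no fragment within an exon can mark it alone. Cx3cr1-203, however, has 740 such bases. The alignment-based tables gave Cx3cr1-203 0 counts in each library, with upper bounds of 0.231 and 0.306 TPM. The read-based tables gave it 443 and 488 counts.

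P2ry12 encodes the purinergic receptor through which microglial processes turn towards ADP, and was the second most abundant member. Its level was 16.59 TPM in replicate 1 and 14.59 TPM in replicate 2, although the counts were nearly equal, 595 and 604. The log2 ratio was 0.00 (-0.17 to 0.17) from scaled counts and -0.19 from the deposited TPM. The whole gene (ENSMUSG00000036353.13, chromosome 3, 59216272 to 59262871, minus strand, GRCm38) lies inside Med12l, a Mediator subunit gene on the opposite strand with 23.43 and 22.22 TPM. Whether the counting kept strand, and so separated fragments of the 2 genes, is not given in the sources used here.

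The tables disagreed on where P2ry12 transcripts start. The gene has distal starts, used by P2ry12-201 and P2ry12-204, and nearer starts that lie at least 35250 bases downstream, used by the other 3 transcripts. Transcripts from the distal starts took 0% and 2.88% of P2ry12 TPM in replicates 1 and 2 by the alignment-based tables, but 100% and 83.2% by the read-based tables. The leading transcript was accordingly P2ry12-202 with 75.2% and 82.9% in the alignment-based tables and P2ry12-201 with 99.4% and 61.6% in the read-based tables. The choice of start leaves the protein as it is, since P2ry12-201 to P2ry12-204 share 1 coding sequence of 1041 bases. P2ry12-201 and P2ry12-202 each have 0 exonic bases of their own, and of these only P2ry12-201 has introns of its own, 2 in number. The RefSeq promoter window of P2ry12 lies at the distal side, at chr3:59262936-59263235 on the minus strand (RefSeq, GRCm38.p6). It is shown, 5′ to 3′, because it lies next to the distal starts that the tables dispute. Both of these starts, 59262831 for P2ry12-201 and 59262871 for P2ry12-204, lie downstream of the window and outside it. Capitals mark a match to GGAAGT, a core of sites bound by ETS factors such as the myeloid regulator PU.1.
P2ry12 promoter: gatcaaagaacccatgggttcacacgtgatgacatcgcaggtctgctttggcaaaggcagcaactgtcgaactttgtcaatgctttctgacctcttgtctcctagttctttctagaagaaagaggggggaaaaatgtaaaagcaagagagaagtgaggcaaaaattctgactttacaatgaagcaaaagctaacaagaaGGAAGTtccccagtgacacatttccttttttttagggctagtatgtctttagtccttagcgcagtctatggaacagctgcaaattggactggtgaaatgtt
The match begins at -51 from the RefSeq start, which is at 59262985. GGAAGT occurs on either strand in 23.8% of 32851 windows of this length, and a match is a description of the sequence only. Over the 8 windows of the 6 members matched in the promoter table used, 5 held GGAAGT or GAGGAA, beside 43.4% of all windows.

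**Figure D2:**
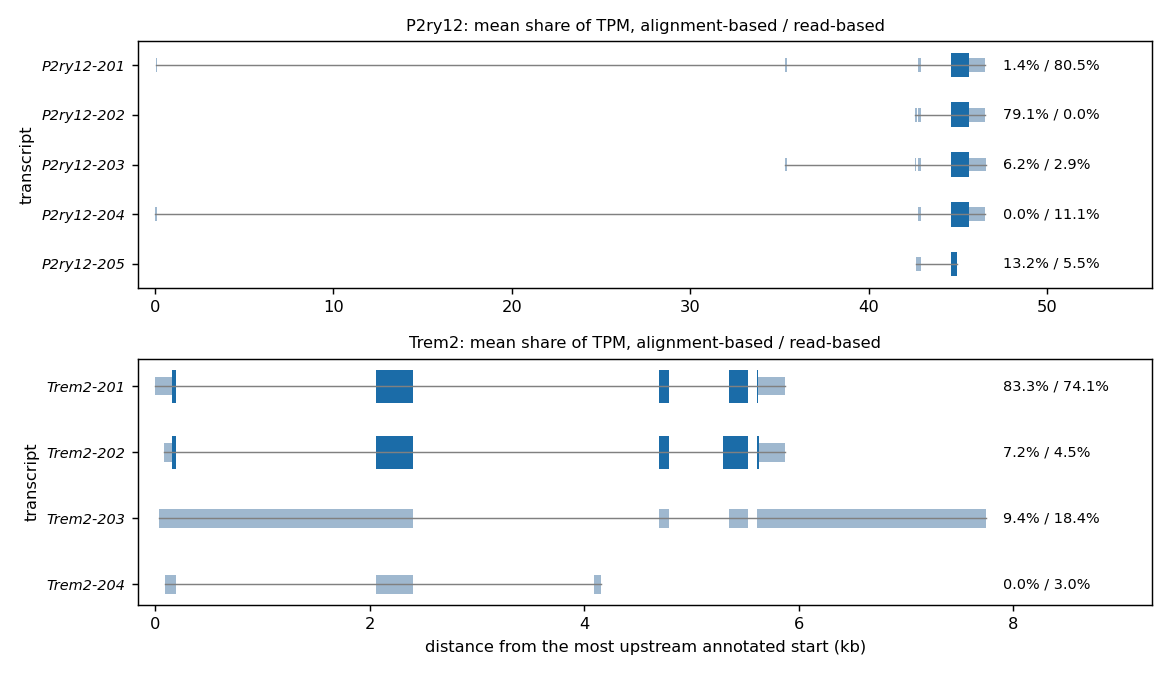
Annotated transcripts of P2ry12 and Trem2, drawn by distance in kb from the most upstream start, with light blocks for exons, dark blocks for coding sequence and lines for introns. The numbers at the right are each transcript's mean share of the gene's TPM over the 2 libraries, alignment-based before and read-based after the stroke; P2ry12-202 leads by the first and P2ry12-201, with its remote first exon, by the second.

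Tmem119, a membrane protein of uncertain function that is used to mark microglia against blood-derived macrophages, had a slightly higher value in replicate 2. Its level was 9.61 TPM in replicate 1 and 10.84 in replicate 2, from 421 and 500 counts. Replicate 2 was 1.17 times replicate 1 by scaled counts, a log2 ratio of 0.23 with an interval of 0.04 to 0.42. That interval covers counting error only and does not reach the 2-fold difference at which a call was made. The gene (ENSMUSG00000054675.5, chromosome 5, 113793729 to 113800516, minus strand, GRCm38) had a clear leading transcript. Tmem119-201 took 100% and 98.1% of TPM in the alignment-based tables and 100% in both libraries of the read-based tables, and 1979 of its 2242 bases belong to no other transcript of the gene.

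Itgam encodes the integrin chain CD11b, which pairs with CD18, the product of Itgb2, to form complement receptor 3. Itgam had 5.15 TPM in replicate 1 and 3.95 in replicate 2, from 411 and 381 counts. Its partner Itgb2 stood lower, at 1.31 and 1.27 TPM. Icam1, a ligand of this receptor on vessels and leukocytes, had 1.03 and 0.84 TPM. The other CD11 chains were near 0: Itgal had 17 and 13 counts, Itgad 5 and 1 counts and Itgax 3 in each library. Itgam was thus the only CD11 chain gene of the 4 examined that reached 1 TPM in both libraries. The gene lies on chromosome 7, 128062640 to 128118491, plus strand (ENSMUSG00000030786.18, GRCm38), and most of it overlaps the same-strand model Gm49368, from 128062683 to 128118491, which had 0 counts in the alignment-based tables and 7.08 and 7.11 in the read-based ones.

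The leading Itgam transcript changed between the libraries. Itgam-201 took 84.4% of Itgam TPM in replicate 1 and 0% in replicate 2 by the alignment-based tables, while Itgam-203 took 0% and 84.8%. The read-based tables gave Itgam-201 86.9% and 33.6%, and Itgam-203 close to 0 in replicate 1 and 52.2% in replicate 2. Their coding sequences of 3462 and 3459 bases differ by the use of 2 acceptor sites 3 bases apart at exon 14, which begins at 128101634 in Itgam-201 and at 128101637 in Itgam-203. The junctions are shown because these 3 bases are the whole coding difference between the 2 leading transcripts, with 20 bases of flank on each side from GENCODE M21 and the extra bases in capitals.
Itgam-201 junction: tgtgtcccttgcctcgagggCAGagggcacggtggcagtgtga
Itgam-203 junction: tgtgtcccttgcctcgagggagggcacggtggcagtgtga
The deposited bounds of the TPM estimates, whose level is not stated, overlapped: 1.38 to 4.16 TPM for Itgam-201 and up to 2.42 TPM for Itgam-203 in replicate 1, and up to 2.33 TPM for Itgam-201 and 0.683 to 3.41 TPM for Itgam-203 in replicate 2. The gene's log2 ratio was -0.13 (-0.34 to 0.07) by scaled counts and -0.38 by deposited TPM. The effective length that TPM divides by was 3906 bases in replicate 1 and 4407 in replicate 2. The short decay transcript Itgam-206, of 349 bases, took 15.6% of TPM in replicate 1 and 0% in replicate 2, and the longer Itgam-205 took 0% and 15.2%. The RefSeq promoter window, chr7:128062390-128062689 on the plus strand (RefSeq, GRCm38.p6), is shown because it holds the starts of both transcripts, at 128062640 for Itgam-201 and 128062669 for Itgam-203. Capitals mark GAGGAA, another core of PU.1 sites, or its complement.
Itgam promoter: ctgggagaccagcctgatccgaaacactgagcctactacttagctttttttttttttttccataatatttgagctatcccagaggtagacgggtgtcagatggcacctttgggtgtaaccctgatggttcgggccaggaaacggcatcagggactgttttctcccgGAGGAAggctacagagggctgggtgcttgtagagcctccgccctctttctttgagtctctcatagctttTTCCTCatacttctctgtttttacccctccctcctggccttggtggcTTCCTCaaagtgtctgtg
It holds 3 matches, on both strands, and GAGGAA is present in 28.3% of all windows.

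Trem2, the lipid-sensing receptor of the immunoglobulin superfamily, was the lowest member. Replicate 1 had 4.05 TPM and replicate 2 had 4.70 TPM, from 117 and 129 counts. The gene (ENSMUSG00000023992.14) lies on chromosome 17, 48346401 to 48354147, plus strand, GRCm38. The full-length coding transcript Trem2-201 led in both tables. It took 88.4% and 78.3% of TPM by the alignment-based tables and 76.1% and 72.0% by the read-based tables.

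Much of the Trem2 signal by counts lay in a retained-intron transcript. Trem2-203, which carries no annotated coding sequence and is 4784 bases long, held 45 of 117 counts in replicate 1, 38.5% (95% interval 29.6 to 47.9, exact by Clopper and Pearson), and 35 of 129 in replicate 2, 27.1% (19.7 to 35.7). By the read-based tables it held 65.1% and 48.5% of counts. Because TPM divides by length, its share of TPM was smaller, 11.6% and 7.23% by the alignment-based tables. A minor coding form, Trem2-202, was assigned counts in replicate 2 only. It held 0 of 117 counts in replicate 1, which by counting error alone allows up to 3 counts. In replicate 2 it held 14 of 129, 10.9% (6.06 to 17.5). The read-based tables also had it in replicate 2 only, at 8.91% of TPM, against 0% in replicate 1. The deposited TPM bounds overlapped, however, with up to 0.946 TPM in replicate 1 and 0.103 to 1.73 TPM in replicate 2. The count intervals and the limit of 3 counts leave out the error of assigning fragments to transcripts. Trem2-202 keeps 55 further bases at the start of exon 4, and its coding sequence is 747 bases long against 681 in Trem2-201. The junctions are shown so that the insertion, in capitals, can be read.
Trem2-202 junction: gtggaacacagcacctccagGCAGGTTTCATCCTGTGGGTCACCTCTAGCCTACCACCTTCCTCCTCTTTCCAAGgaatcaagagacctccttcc
Trem2-201 junction: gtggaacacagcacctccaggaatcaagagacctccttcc
The 20 bases on each side come from GENCODE M21.

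Tyrobp encodes DAP12, the adaptor with an ITAM motif that carries the TREM2 signal. Its level lay above that of its receptor, with 13.78 TPM in replicate 1 and 11.07 in replicate 2, although it had only 131 and 114 counts, since its transcripts are short. The log2 ratio was -0.22 with a wide interval, -0.60 to 0.15. The gene (ENSMUSG00000030579.10) lies on chromosome 7, 30413760 to 30417585, plus strand, GRCm38. Its leading transcript depended on the table: Tyrobp-201 took 100% and 84.2% by the alignment-based tables but 65.0% and 19.0% by the read-based tables, where the incomplete model Tyrobp-202 took 35.0% and 72.6%. Tyrobp-201 has 0 bases of its own and Tyrobp-202 has 28, so few fragments separate them.

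Genes that act with Tyrobp were mostly at low levels. Where 58.8% of nuclear protein-coding genes reached 1 TPM in both libraries, 4 of 12 other adaptor, receptor and signalling genes of this pathway did. They were the lipid phosphatase Inpp5d, which dampens TREM2 signalling (6.59 and 8.58 TPM), the exchange factor Vav1 (1.67 and 1.34 TPM), the kinase Syk (1.42 TPM in each) and the phospholipase Plcg2 (1.07 and 1.22 TPM). The monocyte receptor Clec5a, which also couples to TYROBP, had 13 and 18 counts. Trem1 and Cd300lb had 0 counts in both libraries, which allows up to 3 counts, or 0.0962 and 0.0929 CPM in replicates 1 and 2. Apoe, which TREM2 binds, stood at 826.77 and 817.90 TPM, and in brain comes mostly from astrocytes.

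Aif1 encodes IBA1, the calcium-binding protein by which microglia are stained. Replicate 1 had 4.80 TPM and replicate 2 had 6.15 TPM, with nearly equal counts of 65 and 64, the fewest of the members. The gene (ENSMUSG00000024397.14) lies on chromosome 17, 35170991 to 35176068, minus strand, GRCm38. The log2 ratio was -0.04 (-0.56 to 0.48) from scaled counts and 0.36 from deposited TPM. The effective length behind the TPM was 663 bases in replicate 1 and 475 in replicate 2. The split between transcripts differed as well. The short retained-intron model Aif1-205 held 4 of 65 counts in replicate 1, 6.15% (1.70 to 15.0), and 27 of 64 in replicate 2, 42.2% (29.9 to 55.2). The coding transcript Aif1-203 held 35 of 65 and 7 of 64, or 53.8% (41.0 to 66.3) and 10.9% (4.51 to 21.2). The read-based tables did not show the exchange, with Aif1-205 at 0% and 4.68% of TPM and Aif1-203 at 43.2% and 65.3%. These intervals cover counting error only, not the error of assigning fragments to transcripts, and Aif1-203 and Aif1-205 each have 0 bases of their own.

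Sall1, a zinc-finger repressor that keeps microglia in their homeostatic state, was the 1 transcription factor among the members. Replicate 1 had 4.31 TPM and replicate 2 had 4.97 TPM, from 455 and 562 counts. Replicate 2 was 1.22 times replicate 1, a log2 ratio of 0.28 (0.10 to 0.47), the largest among the members. The gene (ENSMUSG00000031665.7, chromosome 8, 89027235 to 89044162, minus strand, GRCm38) has 1 annotated transcript, so its level involves no split. As background, some neural progenitors express Sall1 as well. TGF-beta signalling keeps Sall1 on in microglia, and the ligand gene Tgfb1 had 2.99 TPM in replicate 1 and 4.56 in replicate 2, from 120 and 192 counts. Its log2 ratio was 0.65 (0.32 to 1.00). The receptor gene Tgfbr1 had 9.87 and 8.31 TPM. Whether the Tgfb1 difference bears on Sall1 was not tested. Of the 6 ligand genes examined, Tgfb1, Cx3cl1 and Apoe had intervals above equality, beside 8.17% of the 18562 genes whose mean count reached 10. Csf1 had an interval below it, beside 6.89%. The log2 ratios of Cx3cl1 and Apoe were small, 0.06 (0.03 to 0.09) for each.

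Other regulators of myeloid and microglial identity stood on both sides of Sall1. Of 10, 9 reached 1 TPM in both libraries, beside 58.8% of nuclear protein-coding genes. Mef2c (288.06 and 233.08 TPM) and Mef2a (50.35 and 45.84 TPM) were highest, and both are abundant in cortical neurons too. Runx1, which acts in early myeloid cells, was lowest at 0.93 and 0.55 TPM. Between the libraries, 2 of the 10, Sall3 among them, had intervals above equality, beside 8.17% of the genes whose mean count reached 10. Another 2, Mef2c and Runx1, had intervals below it, beside 6.89%. The log2 ratio of Mef2c was small, -0.12 (-0.15 to -0.09).

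**Figure D3:**
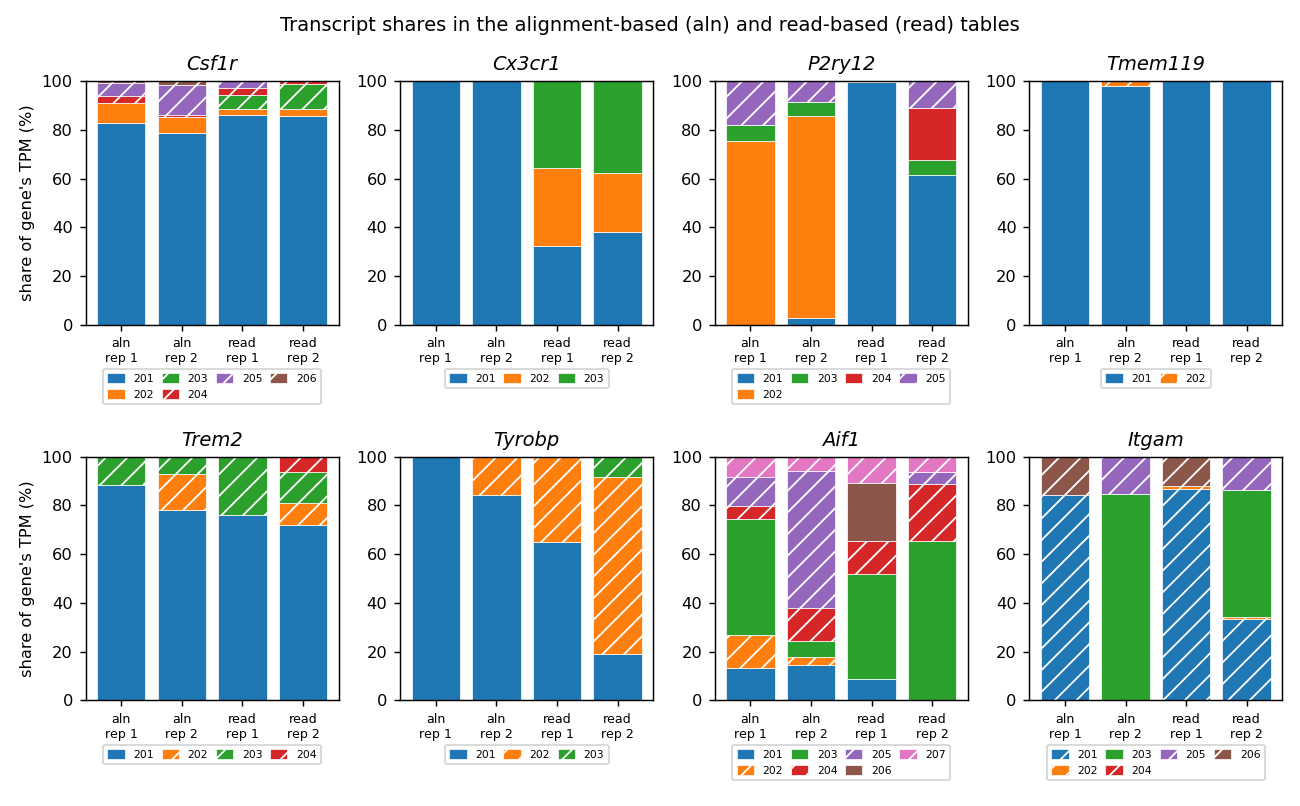
Share of each gene's TPM by transcript, in percent, for the 8 members with several annotated transcripts; in each panel the bars are, in order, replicates 1 and 2 of the alignment-based (aln) tables and replicates 1 and 2 of the read-based (read) tables. Colours are transcripts by their annotated number, and hatched bars lack the coding sequence of the gene's leading complete coding transcript; Csf1r and Tmem119 look alike in all 4 bars, while P2ry12, Itgam, Tyrobp and Aif1 do not.

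Across the members, agreement on the leading transcript was limited. The 9 genes have 37 annotated transcripts, and all but Sall1 have several. The leading transcript by mean share of TPM was the same in both quantifications for 3 of 8 members, Csf1r, Tmem119 and Trem2, where it was the same for 75.8% of all genes that have several transcripts and reached a mean count of 100. Between the 2 libraries the leading transcript was the same for 6 of 8 members in the alignment-based tables, all but Aif1 and Itgam, beside 90.0% of those genes. In the read-based tables it was the same for 5 of 8, all but Cx3cr1, Itgam and Tyrobp, beside 87.1%. Aif1 falls under the minimum of 100 counts, so 7 of the 8 members meet the condition of the shares given. Among the 5 members on which the quantifications differed, the competing complete transcripts of Cx3cr1 and P2ry12 share their coding sequence, and the leading ones of Itgam differ by 3 coding bases. Itgam counts among the 5 only through a near tie of its alignment-based means, 42.4% for Itgam-203 and 42.2% for Itgam-201. Within each library, both quantifications gave Itgam the same leading transcript. Tyrobp and Aif1 differed in coding content too. The share of TPM with the main coding sequence was 100% and 84.2% for Tyrobp in the alignment-based tables, against 65.0% and 19.0% in the read-based tables. For Aif1 it was 61.0% and 21.3%, against 75.9% and 65.3%.

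The order of the levels was clearer at the top than at the bottom in the alignment-based tables. Csf1r, P2ry12, then Cx3cr1 with Tyrobp, then Tmem119 followed each other in the alignment-based tables, and the values of the 2 libraries did not overlap between these steps, except between Cx3cr1 and Tyrobp. Aif1, Sall1, Itgam and Trem2 overlapped each with its neighbour, so the order of neighbours did not exceed the spread between the libraries. Aif1 (4.80 and 6.15 TPM) did lie above Trem2 (4.05 and 4.70 TPM) without overlap. The read-based tables put Tyrobp above Cx3cr1 and Trem2 above Sall1 and Itgam, and kept the other places. There the values of P2ry12 lay within those of Tyrobp, 22.6 and 18.8 TPM, so second place was not settled, and Aif1 and Sall1 did not overlap. In those tables the mean was 46.3 TPM for Csf1r and 7.37 TPM for Trem2.

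Summed over the members, the libraries differed by less than the counting interval. The summed counts were 5378 in replicate 1 and 5591 in replicate 2, a log2 ratio of 0.03 with an interval of -0.02 to 0.09. The median log2 ratio over the 9 genes was 0.00 (range -0.22 to 0.28), beside -0.00 over the 18562 genes whose mean count reached 10, of which the 5th to 95th percentile ran from -0.45 to 0.43. All 9 members lay within that range, 5 above 0 and 4 below.

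**Figure D4:**
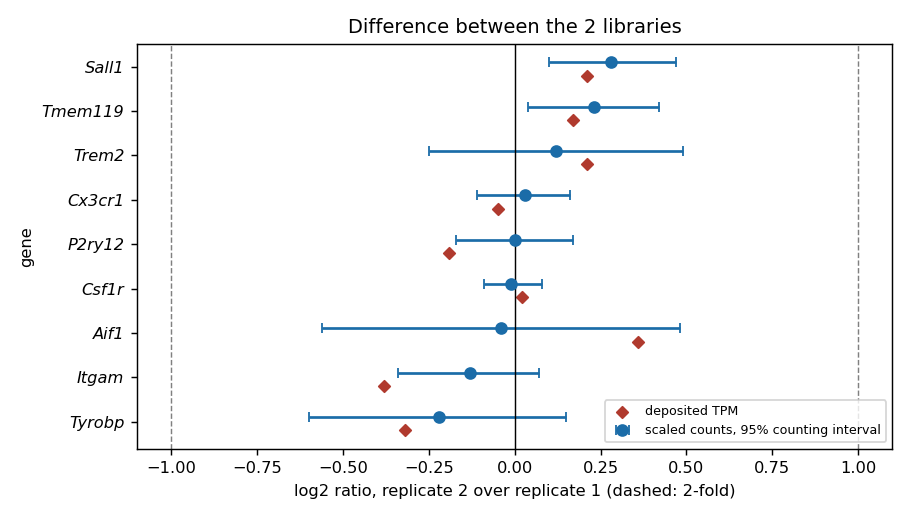
Log2 ratio of replicate 2 over replicate 1 for each member, from scaled counts with 95% counting intervals (blue circles) and from deposited TPM (red diamonds); the dashed lines mark 2-fold. The intervals of Sall1 and Tmem119 lie above 0, and for Aif1, Itgam and P2ry12 the TPM ratio stands apart from the count ratio.

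No member, 0 of 9, had an interval wholly beyond 2-fold, where 0.307% of all genes did. The intervals of 2 members, Tmem119 and Sall1, excluded equality with the higher value in replicate 2, beside 8.17% of those 18562 genes. None, 0 of 9, excluded it with the lower value in replicate 2, beside 6.89%. With 1 library per replicate these intervals compare 2 libraries and cover counting error only, and no test between conditions exists.

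Other microglia genes were present at similar levels. Of 24 further genes, 23 reached 1 TPM in both libraries, with medians of 6.29 and 5.34 TPM in replicates 1 and 2. The protease Ctss (23.26 and 24.33 TPM) and the integrin chain Itgb5 (16.01 and 15.38 TPM) were among the highest. The leukocyte phosphatase Ptprc was lowest, at 1.64 and 0.71 TPM. The interval of none of the 24 excluded equality, where those of 8.17% of all genes lay above it and 6.89% below it. The median log2 ratio of the 24 was -0.02.

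**Figure D5:**
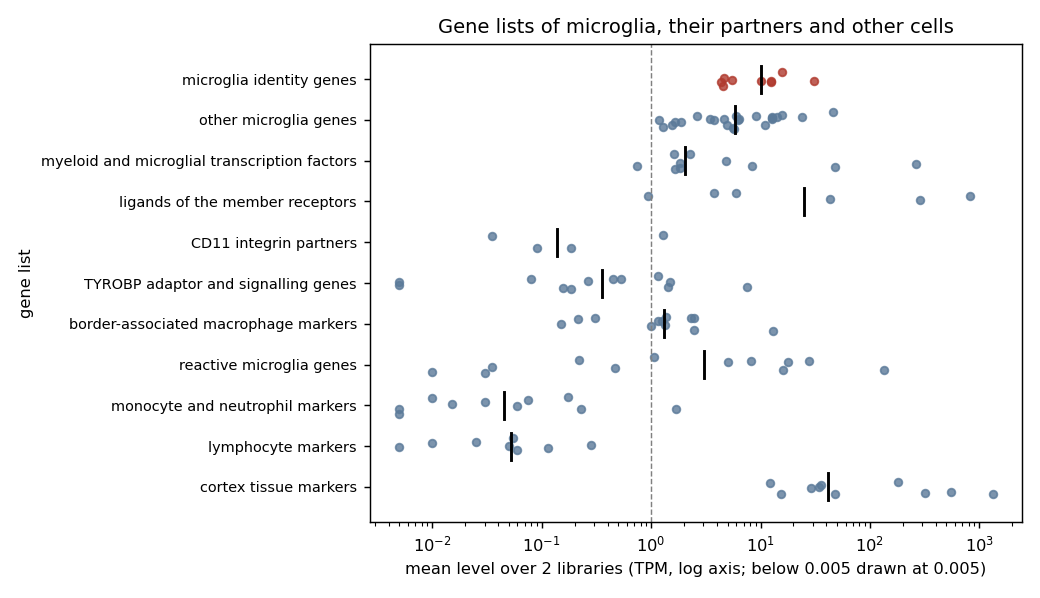
Mean level over the 2 libraries in TPM, on a log axis, of the microglia identity genes (red) and of 10 other gene lists (grey-blue), 1 point per gene; black bars are list medians and the dashed line marks 1 TPM. All points of the microglia identity genes and of the other microglia genes lie to the right of that line, and monocyte, neutrophil and lymphocyte markers to its left, except Ly6c2.

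Markers of other leukocytes were low or absent. Of 10 monocyte and neutrophil markers only Ly6c2 reached 1 TPM in both libraries (1.16 and 2.20 TPM), beside 58.8% of nuclear protein-coding genes. Ly6c2 has close relatives expressed in vessels, between which fragments may be split. The monocyte receptor Ccr2 had 2 and 1 counts, the granulocyte genes S100a8 and S100a9 had 1 to 2, and Ly6g and Plac8 had 0 in both libraries, which allows up to 3. None of 8 lymphocyte markers reached 1 TPM in both libraries, and the highest, the B cell gene Cd79a, had 0.40 and 0.16 TPM. The T cell gene Cd3e had 1 count in each library and Gzma had 0 and 2. All 10 markers of cortical neurons, glia and vessels were detected, down to the myelin gene Mog with 11.95 and 12.44 TPM. No marker of another brain region was examined, so these values do not test the label of left cortex.

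Markers of macrophages of the meninges and perivascular spaces stood at lower levels. Of these 12 markers, 7 reached 1 TPM in both libraries, near the 58.8% of nuclear protein-coding genes that did. The 12 had medians of 1.38 and 1.24 TPM and sums of 29.9 and 24.4 TPM in replicates 1 and 2. The scavenger receptor Stab1, which microglia also express, led with 13.59 and 12.57 TPM, a large part of these sums. The mannose receptor Mrc1 had 2.69 and 2.28 TPM and the antigen presentation gene Cd74 3.54 and 1.43 TPM, and Folr2 was lowest at 0.25 and 0.05 TPM. The median log2 ratio of the list was -0.36. The intervals of 2 of the 12, Cd74 and Siglec1, lay below equality, beside 6.89% of the genes whose mean count reached 10. The median rests on the 10 markers whose mean count reached 10. Among the 9 microglia identity genes, whose median log2 ratio was 0.00, no interval lay below equality. Those of Tmem119 and Sall1 lay above it, beside 8.17% of the genes whose mean count reached 10. How far such cells contribute to the shared genes Csf1r, Cx3cr1, Tyrobp and Aif1 was not tested.

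Genes that microglia raise around plaques or after injury were partly detected. Of 12, 7 reached 1 TPM in both libraries, near the 58.8% of nuclear protein-coding genes that did. The 7 were led by Ctsd (137.98 and 129.97 TPM), Cd63 (28.07 and 27.23 TPM) and Axl (18.76 and 17.33 TPM), which other brain cells express as well. The pattern receptor Clec7a was lowest, with 0 and 1 counts. Lpl (8.35 and 8.02 TPM), Spp1 (5.80 and 4.31 TPM) and Gpnmb (1.08 and 1.06 TPM), named after their values were seen, were detected, while Cst7 had 1 and 0 counts and Itgax 3 in each library. Which cells of the cortex the RNA of Lpl, Spp1 and Gpnmb came from was not tested. The intervals of Gpnmb and Cd9 lay above equality, beside 8.17% of all genes, and that of Spp1 below it, beside 6.89%.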

How the data were processed

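Total RNA-seq of 2 libraries was analysed. Expected counts and TPM per gene and transcript were deposited by the authors in tables derived from transcriptome alignments, with bounds of TPM, a score of unstated level, and the percent of each transcript within its gene. Tables derived from reads and an index, with estimated counts and TPM of transcripts, were also deposited, and were summed per gene here. Per the deposited list of files, the assembly is mm10 and the annotation GENCODE M21. The tools and the strand setting: not given in the sources used here. Fragments of CAST/EiJ alleles were quantified against a C57BL/6J reference, which can lower counts.

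Totals were 31196858 and 32292150 expected counts. Counts were rounded and scaled by TMM in edgeR 4.0.16 under R 4.3.3, using the genes that reached a mean count of 10. Log2 ratios used a prior count of 0.5 and exact Clopper-Pearson 95% intervals, which, like floors of 3 counts, cover counting error only. A difference was called when the interval lay wholly beyond 2-fold; the rule was tested on simulated data. With 1 group no p-value was computed. Transcript shares are shares of TPM unless counts are named.

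Members and 10 further lists of 107 distinct genes were chosen with earlier results of these data known. Named from each list are its 3 highest genes, its lowest and those that differed; others are members' partners or were chosen after their values were seen. A few genes covered by this rule are not reported here. Promoter windows (RefSeq, GRCm38.p6) matched 6 of 9 members. Alternatives varied the scaling, prior count, thresholds, quantification and libraries.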

Additional observations from a re-analysis of the deposited data

How the results depend on the processing

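All 9 members were detected at 0.5 TPM, in the read-based tables and in either library alone; at 5 TPM in both libraries 5 were. The median log2 ratio was 0.06 with read-based counts and between -0.03 and 0.02 under the other settings, which included deposited TPM, an alternative chosen after seeing the data. Calls between the libraries numbered 0 under every scaling, with read-based counts and at 1.2-fold, and 2 where the interval had only to exclude equality. The leading transcript was the same in both quantifications for 4 members by share of counts and for 5 to 6 when either library was left out; only 1 library then sets each leading transcript. Levels of all 9 genes were higher by the read-based tables or when TPM was rescaled over nuclear protein-coding genes. Leaving out a replicate gives no ratio. No paired analysis was possible because the series holds 1 group. Depth limits Aif1, Trem2 and Tyrobp most: with 64 to 131 counts per library, their intervals were the widest of the members.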
